A study of Mus musculus with 6 samples.

Results

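Of 26147 genes listed for retinas of mouse embryos at embryonic day 13.5, 42 belonged to the Wnt pathway set described here: its secreted ligands, the Frizzled receptors that bind them, the secreted proteins that raise or lower the signal, and a few genes that respond to it. They were picked by name, by a rule made with earlier results of these data known. The set took every listed gene of the Wnt, Fzd, Sfrp, Dkk (1 to 4) and Rspo families, together with Axin2, Lef1, Tcf7, Nkd1, Notum, Wif1, Rnf43 and Znrf3. Wnt7a, Wnt7b and Fzd4 were left out, and Wnt1, Wnt8a, Sfrp5 and Dkk4 were not analysed here. The 42 fell into 15 ligands, 9 receptors, 8 secreted antagonists, 6 R-spondins and their ligases, and 4 response genes and TCF factors.

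The study compared 3 wild-type with 3 Tbx3 conditional knockout (Tbx3 cKO) retina libraries, all on a C57BL/6J background. Tbx3 encodes a T-box factor, active on the dorsal side of the optic cup. The knockouts carried the transgene Dkk3-Cre (Tg(Dkk3-cre)D9Tfur) and were Tbx3∆Fl/∆Fl, while their wild-type siblings lacked Cre and were Tbx3Fl/+, so that the controls also held 1 floxed allele. Cre was expressed from regulatory sequence of Dkk3, a member of the set, and effects of Cre or its transgene and of Tbx3 loss cannot be told apart. The number of embryos behind each library is not stated in the labels, so p-values speak only of the scatter among these 6 libraries, which may be technical. The values are normalized reads per gene. Tbx3 itself (ENSMUSG00000018604) was 1998, 2558 and 2577 in the controls and 40.3, 47.8 and 58.9 in the knockouts.

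Wnt proteins carry a lipid that Porcn attaches and that Wls, their transport protein, needs for secretion. On the receiving cell they join a Frizzled receptor to the co-receptor Lrp5 or Lrp6. This stops the breakdown of beta-catenin, which then works with TCF/LEF factors on target genes, while a separate branch through some Frizzleds sets the polarity of cells and the path of axons. In the developing eye, beta-catenin signalling is known for its part in the pigment epithelium, the dorsal optic cup and the ciliary margin, the rim of the retina.

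Libraries differed in more than genotype. Retinal progenitor markers were present in all 6, with Pax6 at 17968 to 18941 in each. Of these 6 markers 1 was higher at an unadjusted p under 0.05: Lhx2, at 4322 to 4903 in the controls and 7402 to 9661 in the knockouts. Rax, like Lhx2 and Pax6 named after its values were seen, was 4346 in Tbx3 cKO 3 against 6376 to 7851 in the other libraries. The summed markers of pigment epithelium (7 genes) were 3744, 6844 and 5397 in the controls and 7952, 6878 and 30466 in the knockouts, without overlap, and 3 of the 7 were higher at an unadjusted p under 0.05. Those of periocular mesenchyme, the connective tissue around the eye (8 genes), were lowest in wild type 1 (1061, against 7700 and 3065 in wild type 2 and 3) and highest in Tbx3 cKO 3 (16393, against 7556 and 2957 in Tbx3 cKO 1 and 2). Lens and surface ectoderm markers (9 genes) summed to 151312 and 55476 in wild type 2 and 3 and to 107596 in Tbx3 cKO 2, against 863 to 2559 in the others. The endothelium sum did not split by genotype, at 3589 to 4381 in the controls and 3143 to 5056 in the knockouts. Its log2 fold changes were 5 positive and 1 negative, with 1 of 6 genes higher at an unadjusted p under 0.05. The sums of the lists that follow did split by genotype. Of 6 ganglion cell markers 4 were lower at an unadjusted p under 0.05, with sums of 11158 to 51726 in the controls and 220 to 7095 in the knockouts, and Pou4f2 was at 0 in Tbx3 cKO 3. Of 6 macrophage markers 6 were higher (682 to 1253 against 2504 to 5039), as were 7 of 8 red blood cell markers (61895 to 96995 against 192744 to 597693). Of 4 tested optic stalk markers 3 were higher (1902 to 2309 against 5442 to 7201, with Nkx2-1 at 0 in 4 libraries), and 2 of 7 ciliary margin markers were (7780 to 13791 against 15566 to 22876). The ciliary margin list was mixed, with 5 positive and 2 negative log2 fold changes. The negative ones were Cdo1 (183 to 687 against 123 to 157, without overlap, log2 fold change -1.05) and Msx1 (log2 fold change -0.81). The part of these differences in the values of the set was not tested. In whole tissue, fewer cells of a type and less RNA per cell cannot be told apart.

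Within the set, the clearest differences lay among the Frizzled receptors. Fzd1 and Fzd8 were higher in every Tbx3 cKO library than in any wild-type one, and Fzd9 was lower in every one. Tcf7 was also higher, and the feedback inhibitor gene Nkd1 lower, without overlap between the groups. No ligand, antagonist or R-spondin separated the genotypes. Of the 42 members, 35 reached 10 normalized reads in 3 or more libraries and were tested, which left out 5 ligands and the R-spondin genes Rspo2 and Rspo3. Fzd9 reached that level in the controls alone, so its being tested already required it to be high there.

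No tested member passed an adjusted p of 0.05 (limma on log2(value + 1), Benjamini-Hochberg over 18914 genes), where 0.0634% of all tested genes did. At an unadjusted p under 0.05, 3 members were higher (Fzd1, Fzd8 and Tcf7) and 2 lower (Fzd9 and Nkd1), against 6.39% and 7.16% of all genes tested. The same 5 members were those with no overlap between groups, against 10.6% of all genes higher and 11.7% lower without overlap. The counts in the set are thus close to those over all genes. Without wild type 2, which had the highest sum of lens and surface ectoderm markers, 9 members were higher and 1 lower at an unadjusted p under 0.05. Over all 18914 genes, 1204 were higher and 1272 lower in that fit. A 4-library fit left out wild type 1 and Tbx3 cKO 3. These lay at the ends of the pigment epithelium, ciliary margin, macrophage and mesenchyme sums. This fit gave 4 members higher and 4 lower, against 747 and 786 of the 18914 genes. Fzd1 and Fzd8 were at an unadjusted p under 0.05 in each of the 18 alternative fits, Nkd1 in 10 and Tcf7 in 8. Fzd9 was in all 18 as well, but it passed the filter through the controls alone. All 18 fits reuse the libraries by which these 5 members were picked, so for none of them is the count a sign of stability.

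**Figure D1:**
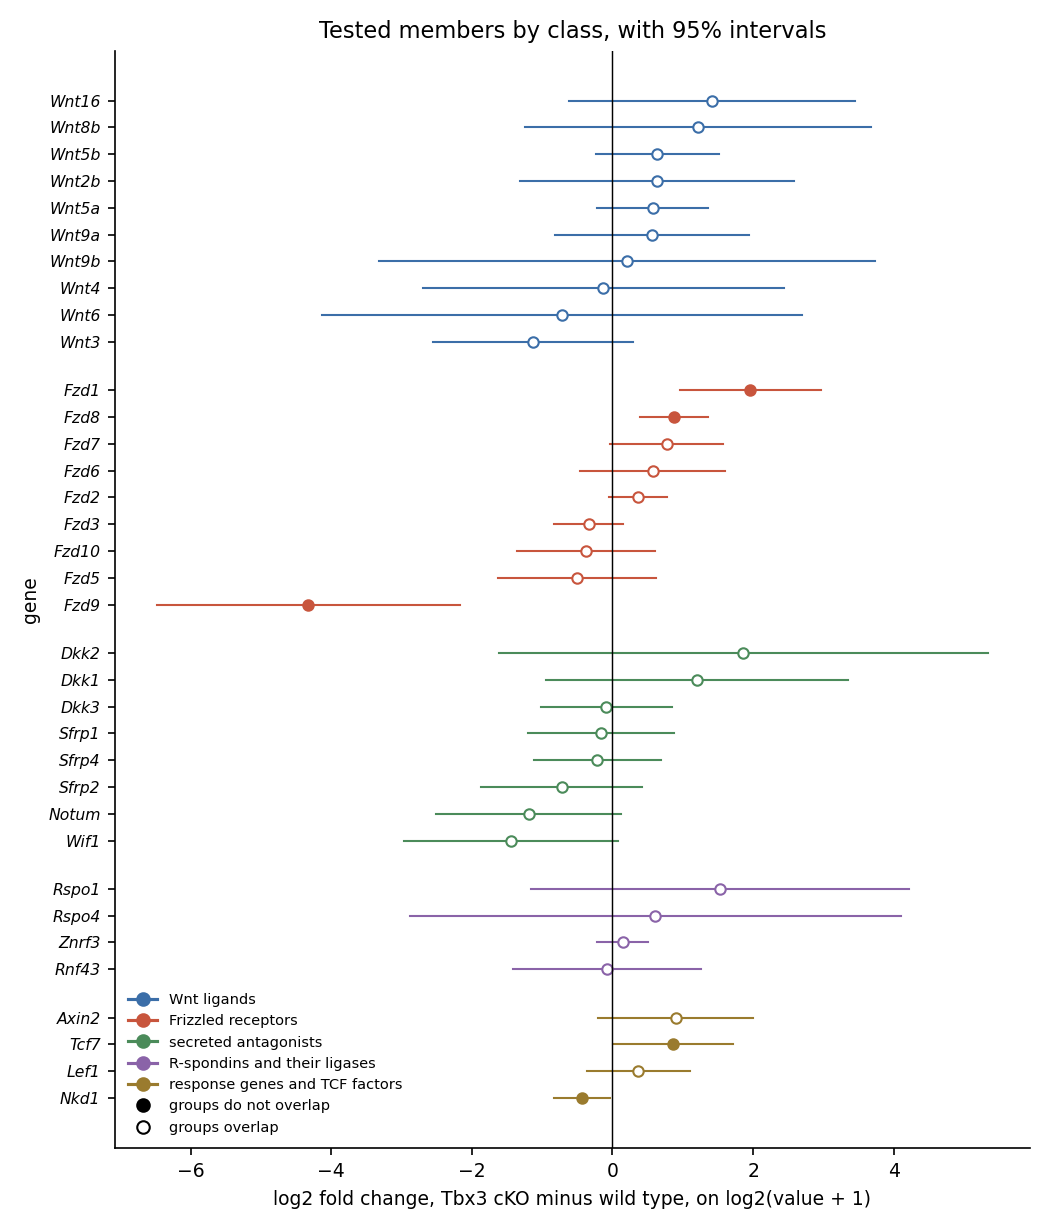
Log2 fold change (Tbx3 cKO minus wild type, on log2(value + 1)) of the 35 tested members, grouped and coloured by class, with 95% CIs from limma. Filled points mark the 5 members whose groups do not overlap. Fzd1 (1.96), Fzd8 (0.88) and Fzd9 (-4.33) lie farthest from 0 relative to their intervals, and most intervals of ligands and antagonists span 0 widely.

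Frizzled receptors are proteins with 7 membrane passes whose outer domain grips the Wnt lipid. By sequence they form subfamilies: Fzd1, Fzd2 and Fzd7; Fzd5 and Fzd8; Fzd3 and Fzd6; and Fzd9 and Fzd10 with Fzd4. All 9 analysed receptor genes were tested. Their median log2 fold change was 0.36, against -0.02 over all genes tested, with 5 positive and 4 negative. The median thus hides opposite differences within the family.

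Fzd1 (ENSMUSG00000044674) had values of 595, 1515 and 1319 in the controls and 3210, 3254 and 6755 in the knockouts. The lowest knockout library lay above the highest control, with the top value in Tbx3 cKO 3 and the bottom value in wild type 1. The means were 1143 ± 485 and 4407 ± 2034 (SD, n = 3 each), a 3.86-fold difference. The log2 fold change was 1.96 (SE 0.42, 95% CI 0.97 to 2.96, limma adjusted p = 0.252). The exact two-sided permutation test gave p = 0.1, the smallest that 3 against 3 allows. In the 4-library fit, the log2 fold change was 1.19 (SE 0.12) and the limma adjusted p 0.0266, the one fit in which a member passed the threshold. That fit left out the lowest and the highest library of Fzd1 itself, which narrows its spread, so the pass is no added support. Over all genes tested 43 passed in it, against 12 with all libraries. Pigment epithelium, optic stalk, ciliary margin, macrophage and red blood cell sums were higher in the same 3 knockouts. Like Fzd1, the pigment epithelium, ciliary margin, macrophage and mesenchyme sums were lowest in wild type 1 and highest in Tbx3 cKO 3. The ganglion cell sum was the reverse, highest in wild type 1 and lowest in Tbx3 cKO 3. The part of these lists was not tested.

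Its nearest relatives had positive fold changes as well, but overlapped between genotypes. Fzd7, which acts with Fzd1 and Fzd2 in early tissue movements, was 736, 1441 and 1199 in the controls and 1784, 1277 and 2780 in the knockouts (log2 fold change 0.77, 95% CI -0.03 to 1.57, limma adjusted p = 0.374). Fzd2 was 1287, 1731 and 1504 against 2064, 1544 and 2240 (log2 fold change 0.36, limma adjusted p = 0.396). For both genes the overlap came from Tbx3 cKO 2, which lay below wild type 2.

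Fzd8 (ENSMUSG00000036904), which with Fzd5 serves the early eye and forebrain, was 590, 469 and 440 in the controls and 1119, 700 and 961 in the knockouts. All knockout libraries lay above all controls, and Tbx3 cKO 3 was not the extreme one. The ratio of means was 1.85 and the log2 fold change 0.88 (SE 0.21, 95% CI 0.38 to 1.37, limma adjusted p = 0.283; exact permutation p = 0.1). In the 4-library fit it was 0.96 (SE 0.23, limma adjusted p = 0.315). That fit reuses libraries by which Fzd8 was picked and leaves out its highest control, so the value is no added support.

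Fzd5, the Frizzled gene best known from retinal progenitors, did not follow its relative Fzd8. Its values were 11468, 9511 and 11262 in the controls and 13899, 9419 and 3308 in the knockouts. The highest and the lowest value of all both came from knockouts, and the lowest from the library that was also lowest in Rax. The log2 fold change was -0.50 (95% CI -1.63 to 0.63, limma adjusted p = 0.631) and turned to 0.10 without Tbx3 cKO 3.

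Fzd9 (ENSMUSG00000049551) had the largest fold change of the 35 tested members. It was 117, 86.4 and 62.8 in the controls and 8.06, 7.96 and 0 in the knockouts, where a value of 0 allows up to 3.16 at the depth of that library. The knockout values stand for about 8, 7 and 0 reads, so they are known only coarsely. The ratio of wild-type to knockout means was 16.6, and the log2 fold change was -4.33 (SE 0.91, 95% CI -6.48 to -2.17, limma adjusted p = 0.235; exact permutation p = 0.1). In the 4-library fit it was -3.05 (limma adjusted p = 0.122). Fzd9 was the sole member that passed the filter through 1 group alone, so its presence among the tested genes already required it to be high in the controls. The ganglion cell sums given above were lower in the same 3 libraries. Pigment epithelium, optic stalk, ciliary margin, macrophage and red blood cell sums were higher in them. The part of these lists in the Fzd9 difference was not tested.

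The other member of that subfamily, Fzd10, was 89.6, 225 and 144 against 74.6, 116 and 152, with overlapping groups (log2 fold change -0.38, limma adjusted p = 0.683). Fzd3 and Fzd6, the pair best known from planar polarity and axon growth, differed in sign. Fzd3 was 9961, 8780 and 9803 in the controls and 9870, 7798 and 5487 in the knockouts (log2 fold change -0.34, limma adjusted p = 0.468). Fzd6 was 236, 540 and 519 against 412, 510 and 1040 (log2 fold change 0.57, limma adjusted p = 0.549). For both, the value farthest from the controls was that of Tbx3 cKO 3.

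**Figure D2:**
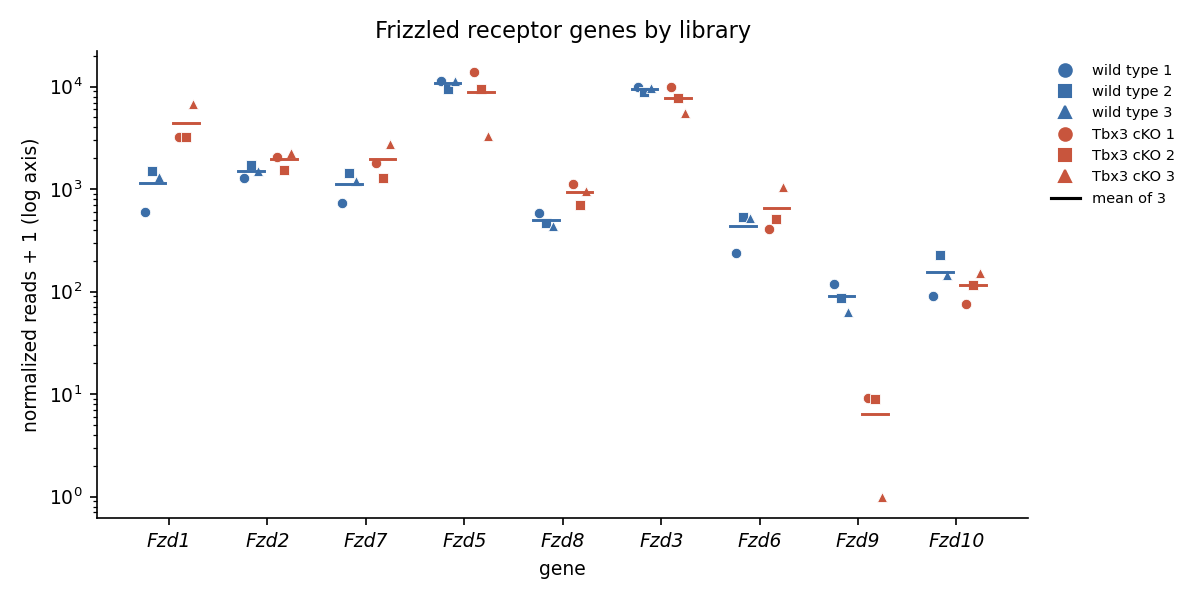
Normalized reads (plus 1, log axis) of the 9 Frizzled genes in each library, ordered by subfamily; blue is wild type, red is Tbx3 cKO, symbols give the replicate and bars the mean of 3. Fzd1 and Fzd8 lie higher and Fzd9 lower in all 3 knockouts, while Fzd5 is split by Tbx3 cKO 3 at 3308.

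To compare levels between receptors, values were divided by the length of annotated exon (GENCODE M21, build GRCm38; the annotation behind the deposited values is not given in the sources used here). On this scale the order of wild-type mean levels was Fzd5, Fzd3, Fzd2, Fzd1, Fzd7, Fzd6, Fzd8, Fzd10 and Fzd9, from 1554 reads per kilobase for Fzd5 down to 38.7 for Fzd9. In wild type 1, Fzd7 stood above Fzd1, and Fzd8 and Fzd9 stood above Fzd6, so these neighbours in the order are not separated. In Tbx3 cKO, Fzd1 came second by mean level, with 1050 reads per kilobase against 1283 for Fzd5. Its rank was 3, 2 and 1 in Tbx3 cKO 1, 2 and 3.

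Of all Frizzled reads per kilobase (without Fzd4), Fzd1 made up 4.27, 10.3 and 8.64% in the controls and 15.9, 20.9 and 38.6% in the knockouts. The shares did not overlap (7.73 ± 3.11% against 25.2 ± 11.9%, SD, n = 3 each; exact permutation p = 0.1, the smallest possible). The share of Fzd3 was lower in the same libraries, with 23.4, 19.5 and 21.1% against 16.1, 16.4 and 10.3%. Fzd5 held 39.2 to 49.98% in the controls and 41.9, 36.7 and 11.5% in the knockouts, so that its groups overlapped. Shares of a total are linked, and a higher share of one receptor lowers those of the others.

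**Figure D3:**
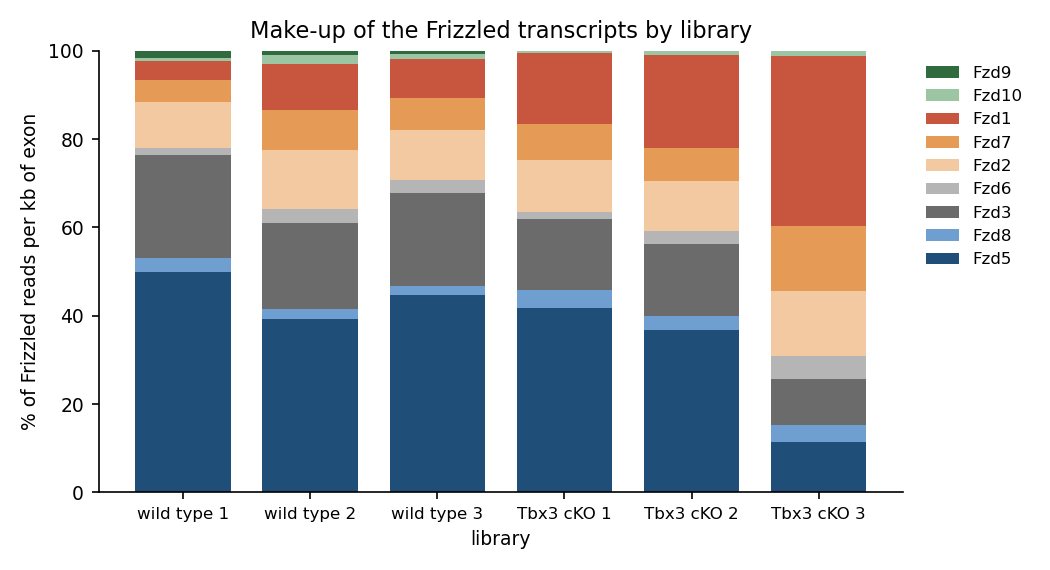
Share (%) of each of the 9 Frizzled genes in the Frizzled reads per kilobase of exon, 1 bar per library. The Fzd1 segment spans 4.27 to 10.3% in the controls and 15.9 to 38.6% in the knockouts, and Fzd5 shrinks to 11.5% in Tbx3 cKO 3.

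Promoter sequences are shown for Fzd1, Fzd9 and Nkd1, members on both sides of the comparison whose groups did not overlap. Each covers 250 bases before and 50 bases from the annotated start, from RefSeq on build GRCm38.p6, matched by gene symbol because the deposited values rest on another build, and reads in the direction of the gene. Windows were searched on both strands for the T-box core AGGTGT and for the TCF/LEF letters CTTTGAT or CTTTGAA, and capitals mark a match. The Fzd1 window lies at chr5:4758167-4758466 (minus strand), that of Fzd9 at chr5:135250998-135251297 (minus strand) and that of Nkd1 at chr8:88527383-88527682 (plus strand).
Fzd1: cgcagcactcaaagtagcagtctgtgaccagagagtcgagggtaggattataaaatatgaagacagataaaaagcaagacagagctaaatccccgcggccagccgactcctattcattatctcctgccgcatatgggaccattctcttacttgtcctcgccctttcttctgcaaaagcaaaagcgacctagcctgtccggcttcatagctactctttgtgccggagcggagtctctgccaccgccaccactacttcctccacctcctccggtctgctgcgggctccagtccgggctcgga
Fzd9: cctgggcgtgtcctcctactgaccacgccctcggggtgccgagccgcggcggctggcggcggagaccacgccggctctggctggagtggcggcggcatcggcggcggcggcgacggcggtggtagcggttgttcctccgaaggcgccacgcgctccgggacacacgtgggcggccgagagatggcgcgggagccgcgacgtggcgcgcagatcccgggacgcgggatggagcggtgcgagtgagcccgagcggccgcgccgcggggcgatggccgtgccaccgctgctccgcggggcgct
Nkd1: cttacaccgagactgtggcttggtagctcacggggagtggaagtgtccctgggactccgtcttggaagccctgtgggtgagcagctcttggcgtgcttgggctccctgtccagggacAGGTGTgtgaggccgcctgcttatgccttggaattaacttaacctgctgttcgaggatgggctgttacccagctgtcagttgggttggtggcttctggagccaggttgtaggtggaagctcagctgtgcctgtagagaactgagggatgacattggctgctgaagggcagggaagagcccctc

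Neither Fzd1 nor Fzd9 held a match, and Nkd1 held 1 T-box core, beginning at position -133 from the start. The windows of Tcf7, whose groups did not overlap either, are not shown and held no match. The table matched 29 members with 37 windows. The T-box core was in 5 of them (13.5%), against 13.8% of 32544 promoters of the same length, and the TCF/LEF letters in 3 (8.11%) against 8.67%. The longer T-box form AGGTGTGA was in 0 of the 37 and in 1.28% of all. The Fzd9 window was 78% G and C, more than 98% of all promoters, while that of Fzd1, at 54%, was near the median of 53%. Matches and their lack describe only the letters in these windows.

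The ligands showed no difference between genotypes beyond the spread of the libraries. Of the 15 genes, 10 were tested, 0 of them at an unadjusted p under 0.05, and their median log2 fold change was 0.57 with 7 positive and 3 negative. That median was -0.43 in the 4-library fit and -0.0207 without wild type 1. Wnt5b, Wnt2b and Wnt5a, in most libraries the ligands with the most reads per kilobase, together held 61.9 to 92.5% of the ligand total.

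Wnt5b, a close relative of Wnt5a in the branch that does not need beta-catenin, was 295, 835 and 612 in the controls and 675, 905 and 934 in the knockouts. The groups overlapped through wild type 2 (log2 fold change 0.64, SE 0.37, 95% CI -0.23 to 1.51, limma adjusted p = 0.449). Wnt5a, which acts through Ror2 on cell polarity, was 213, 442 and 334 against 486, 333 and 639 (log2 fold change 0.57, limma adjusted p = 0.453). In both genes wild type 1 was the lowest library.

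Wnt2b, known from the pigment epithelium and the ciliary margin, was 86.8, 394 and 302 in the controls and 206, 172 and 1093 in the knockouts. Its high value sits in the library with the most pigment epithelium transcript and its low value in the one with the least. The ciliary margin, macrophage and mesenchyme sums had the same lowest and highest library, and the part of these lists was not tested. The log2 fold change was 0.63 with all libraries (limma adjusted p = 0.733) and -0.87 in the 4-library fit (limma adjusted p = 0.347), so its direction turns on these libraries. Wnt3, which signals through beta-catenin, had the smallest p among the ligands, with 45.8, 43.2 and 13.5 against 19.2, 11.4 and 10.5 (log2 fold change -1.13, 95% CI -2.55 to 0.30, limma adjusted p = 0.425).

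A group of ligands stood out in a single control. Wild type 2 had the highest value of Wnt4 (334, against 16.8 to 78.6 in the other 5 libraries), of Wnt6 (197, against 2.28 to 44.3) and of Wnt9b (176, against 1.79 to 31.6). Wnt2 was 74.2 there and 0.93 to 15.8 elsewhere, and Wnt10a was 26.3 there and 0 to 18.1 elsewhere. Wnt6 and Wnt9b are known from surface ectoderm, and wild type 2 was also the library highest in lens and surface ectoderm markers, whose part was not tested. The match with the sum held in that library only. In Tbx3 cKO 2, where these markers summed to 107596, Wnt6 was at its lowest (2.28) and Wnt9b was 15.9. In wild type 3, with a sum of 55476, Wnt6 was 8.07 and Wnt9b at its lowest (1.79). Without wild type 2 the log2 fold change of Wnt4 went from -0.13 to 1.21 and that of Wnt6 from -0.72 to 0.65, neither near the adjusted threshold (limma adjusted p = 0.417 and 0.848).

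The remaining ligands were read little. Wnt9a ranged from 11.2 to 50.5, Wnt16 from 3.59 to 76.8 with its top value in Tbx3 cKO 3, and Wnt8b from 0.94 to 30.8 with its top value in wild type 1. Wnt11 (1.79 to 10.3), Wnt10b (0 to 15.1) and Wnt3a (0 to 8.46) were not tested, and the 3 Tbx3 cKO values of Wnt3a were 0, which allows up to 3.02 to 3.41. None of the tested genes among them reached an unadjusted p of 0.05 with all libraries. Wnt16 did with library weights, and Wnt8b did without wild type 1 and in the 4-library fit.

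**Figure D4:**
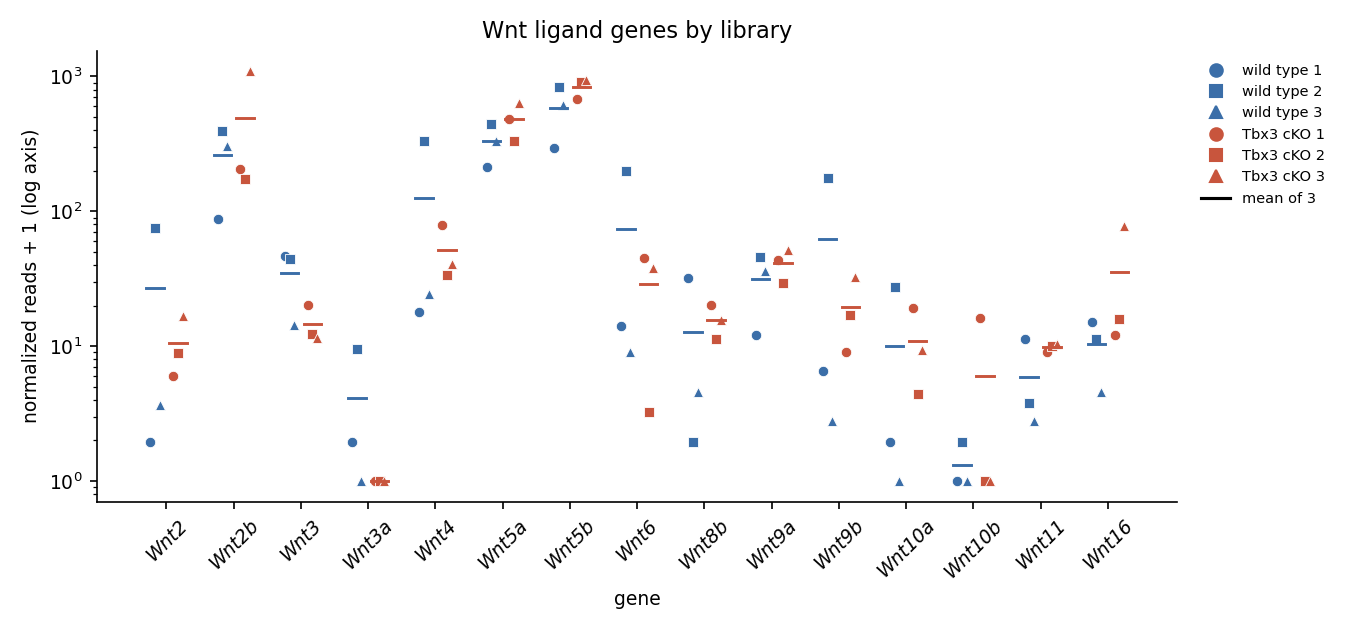
Normalized reads (plus 1, log axis) of the 15 ligand genes in each library; colours, symbols and bars as for the receptors. Wild type 2 (blue square) is far above the other libraries in Wnt2, Wnt4, Wnt6 and Wnt9b, and Tbx3 cKO 3 (red triangle) in Wnt2b and Wnt16.

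The secreted antagonists were not shifted in 1 direction. All 8 were tested, 0 at an unadjusted p under 0.05, with a median log2 fold change of -0.19, 2 positive and 6 negative. Sfrp2 and Dkk3 made up 80.7 to 97.1% of the antagonist reads per kilobase in each library. Sfrp2, a decoy that binds Wnts in the fluid between cells, was 27660, 48533 and 53883 in the controls and 35263, 39139 and 11736 in the knockouts. Apart from Tbx3 cKO 3, the knockouts lay inside the range of the controls (log2 fold change -0.72, SE 0.48, 95% CI -1.86 to 0.43, limma adjusted p = 0.502). Its relative Sfrp1 was 2465 to 6876 in the controls and 2245 to 5086 in the knockouts (log2 fold change -0.16, limma adjusted p = 0.88).

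Dkk3, a divergent member of the Dickkopf family and the gene that lends its name to the Cre transgene, was 24580, 21819 and 24561 in the controls and 36059, 27095 and 11214 in the knockouts. Tbx3 cKO 1 and 2 were above all controls and Tbx3 cKO 3 below all of them. The log2 fold change was -0.09 (95% CI -1.02 to 0.84, limma adjusted p = 0.93) with all libraries and 0.40 without Tbx3 cKO 3 (limma adjusted p = 0.534). Among its tested neighbours on the chromosome, Usp47 was 6599, 6639 and 6770 in the controls and 10746, 9281 and 6916 in the knockouts, with no overlap (log2 fold change 0.41, limma adjusted p = 0.36). Galnt18, farther along on that side, was lower (219, 287 and 217 against 153, 95.6 and 65.3, log2 fold change -1.27, limma adjusted p = 0.311). On the other side Mical2 was 57.3 to 78.0 against 58.0 to 227, and Parva 3379 to 3763 against 3420 to 3754. Whether the transgene adds reads to Dkk3 or its neighbours was not tested.

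Dkk1 and Dkk2, which act on the co-receptor Lrp6, were highest in Tbx3 cKO 3. Dkk1 was 53.2, 189 and 152 in the controls and 105, 162 and 1109 in the knockouts. Dkk2 was 17.7, 1456 and 260 against 636, 325 and 1649. Mesenchyme, pigment epithelium, ciliary margin and macrophage sums were highest in the same library and lowest in wild type 1, where both genes were lowest. The part of these lists was not tested. Log2 fold changes of 1.201 for Dkk1 and 1.86 for Dkk2 (limma adjusted p = 0.546 and 0.561) became -0.38 and -0.44 in the 4-library fit.

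Wif1 and Notum had the lowest fold changes of the class. Wif1, which binds Wnts directly, was 64.4, 96.8 and 75.4 in the controls and 22.2, 76.2 and 12.6 in the knockouts (log2 fold change -1.44, SE 0.64, 95% CI -2.96 to 0.08, limma adjusted p = 0.376). Notum, an enzyme that strips the lipid from Wnts, was 102, 181 and 137 against 139, 46.4 and 31.6 (log2 fold change -1.19, 95% CI -2.51 to 0.12, limma adjusted p = 0.386). In each gene 1 knockout library lay within the control range, Tbx3 cKO 2 for Wif1 and Tbx3 cKO 1 for Notum. Sfrp4 was 26.2 to 48.4 over all libraries.

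R-spondins are secreted proteins that bind Lgr4, Lgr5 or Lgr6 and thereby block Rnf43 and Znrf3, ligases that remove Frizzled receptors from the cell surface. Of these 6 genes 4 were tested, 0 at an unadjusted p under 0.05, with a median log2 fold change of 0.38, 3 positive and 1 negative. That median was -0.48 in the 4-library fit, -0.18 without Tbx3 cKO 3 and -0.0436 without wild type 1. Znrf3 was 727, 833 and 796 in the controls and 898, 721 and 1004 in the knockouts (log2 fold change 0.14, SE 0.15, 95% CI -0.21 to 0.50, limma adjusted p = 0.668). Its standard error was the smallest of the 35 tested members. Rspo1 was 10.3, 272 and 62.8 against 86.7, 132 and 402 (log2 fold change 1.53, 95% CI -1.16 to 4.22, limma adjusted p = 0.542), and its log2 fold change was -0.29 in the 4-library fit. Rspo3 was 158 in Tbx3 cKO 3 and 4.49 to 14.1 in the other 5 libraries. Rspo2 (0 to 19.999), Rspo4 (0 to 38.9) and Rnf43 (18.1 to 64.2) were read little.

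The 4 response genes and TCF factors did not all differ in the same direction, with 3 positive and 1 negative log2 fold change and a median of 0.61. Axin2, a scaffold of the complex that destroys beta-catenin and a widely used readout of the pathway, was 225, 571 and 377 in the controls and 511, 480 and 1285 in the knockouts. Its groups overlapped through wild type 2, and the top value was that of Tbx3 cKO 3. The log2 fold change was 0.90 (SE 0.47, 95% CI -0.20 to 2.003, limma adjusted p = 0.416) and 0.09 in the 4-library fit.

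Nkd1 (ENSMUSG00000031661), a target that binds Dishevelled and damps the signal, was 1650, 1775 and 1843 in the controls and 1600, 1343 and 1021 in the knockouts. The groups did not overlap, though Tbx3 cKO 1 lay just under wild type 1. The log2 fold change was -0.43 (SE 0.17, 95% CI -0.83 to -0.03, limma adjusted p = 0.357). Tcf7 (ENSMUSG00000000782), a TCF factor, was 232, 509 and 509 in the controls and 577, 612 and 1017 in the knockouts, again without overlap (log2 fold change 0.86, SE 0.36, 95% CI 0.000567 to 1.71, limma adjusted p = 0.368). In the 4-library fit it was 0.22 for Tcf7 and -0.30 for Nkd1. Lef1, its partner factor, was 326, 678 and 517 against 755, 457 and 714 (log2 fold change 0.37, limma adjusted p = 0.588).

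The wider pathway was read through 7 further lists, 65 genes tested in all. At an unadjusted p under 0.05, 6 were higher and 5 lower, against the 6.39% and 7.16% of all genes tested, and 0 passed adjustment (limma). These counts are near the background, and so nothing is read from the number in any 1 list. Their median log2 fold change was -0.02, that of all genes tested.

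Of 10 tested secreted or membrane modulators, 3 were higher and 0 lower at an unadjusted p under 0.05: Shisa2, Shisa3 and Frzb. Shisa2, which holds immature Frizzled and FGF receptors inside the cell, was 2460, 4736 and 5297 in the controls and 10456, 10310 and 13953 in the knockouts. Every knockout library lay well above every control (log2 fold change 1.54, SE 0.29, limma adjusted p = 0.198), and in the 4-library fit the value was 1.05 (limma adjusted p = 0.0378). That fit left out the lowest and the highest library of Shisa2 itself, so its smaller p is no added support. Shisa3 was 13.7, 38.9 and 24.2 against 76.4, 61.3 and 73.3 (log2 fold change 1.53, limma adjusted p = 0.32).

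Among 13 co-receptors and other receptors, Ror2, a receptor for Wnt5a, was the 1 gene higher at an unadjusted p under 0.05. It was 114, 243 and 158 in the controls and 508, 298 and 934 in the knockouts, without overlap (log2 fold change 1.67, SE 0.45, limma adjusted p = 0.315). Gpc4, a heparan sulphate proteoglycan, was next by p, with 1107 to 1494 against 792 to 1279 (log2 fold change -0.47, limma adjusted p = 0.376). Of the secretion genes, Wls was 71.0, 671 and 321 against 480, 598 and 2504 (log2 fold change 1.84, limma adjusted p = 0.403). Its lowest and highest library were those of the pigment epithelium, ciliary margin, macrophage and mesenchyme sums, whose part was not tested. Porcn was 194 to 261 against 217 to 299.

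Inside the cell, Ctnnb1, the gene of beta-catenin, was 29128 to 30189 in the controls and 27258 to 31204 in the knockouts (log2 fold change -0.02, 95% CI -0.27 to 0.22). Of 12 core genes 3 were lower at an unadjusted p under 0.05 (Gsk3b, Apc and Apc2) and 0 higher. The kinase gene Gsk3b was 6735 to 9164 against 5203 to 5997 (log2 fold change -0.39, limma adjusted p = 0.343), and Apc, a scaffold of the destruction complex, was 6049 to 9238 against 4618 to 5833 (log2 fold change -0.45, limma adjusted p = 0.357). In both, wild type 1 was the highest library. Among 10 nuclear effectors 1 was lower, Pygo1, a partner of the beta-catenin complex, with 1802 to 2045 against 1566 to 1714 (log2 fold change -0.23, limma adjusted p = 0.367), and the corepressor gene Tle1 was next by p, with 2359 to 3689 against 684 to 2426.

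Of 12 planar polarity genes 1 was higher and 1 lower at an unadjusted p under 0.05. Dact2, which binds Dishevelled, was 21.5, 62.9 and 61.9 against 96.8, 93.3 and 595 (log2 fold change 1.97, limma adjusted p = 0.36). Celsr3, an atypical cadherin of axon tracts, was 2977, 759 and 1269 against 1048, 195 and 24.2 (log2 fold change -3.04, limma adjusted p = 0.365), and its lowest library was also the lowest in ganglion cell markers. Among 6 other response genes Otx1, a homeobox gene also of the ciliary margin, was higher at an unadjusted p under 0.05 with overlapping groups (522, 2199 and 1729 against 3050, 2141 and 6859), and Msx1 was next by p, with 74.7 to 132 against 42.3 to 74.7.

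Across the tested members, wild type 1 was the lowest library for 16 of 35 and Tbx3 cKO 3 the highest for 18 of 35. Tbx3 cKO 3 was also the lowest for 9 of 35, Fzd5, Fzd3, Sfrp2, Dkk3 and Nkd1 among them. Wild type 1 and Tbx3 cKO 3 were also at the ends of the pigment epithelium, ciliary margin, macrophage and mesenchyme sums given above, and at the opposite ends of the ganglion cell sum. Fzd1 was lowest and highest in these libraries too.

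**Figure D5:**
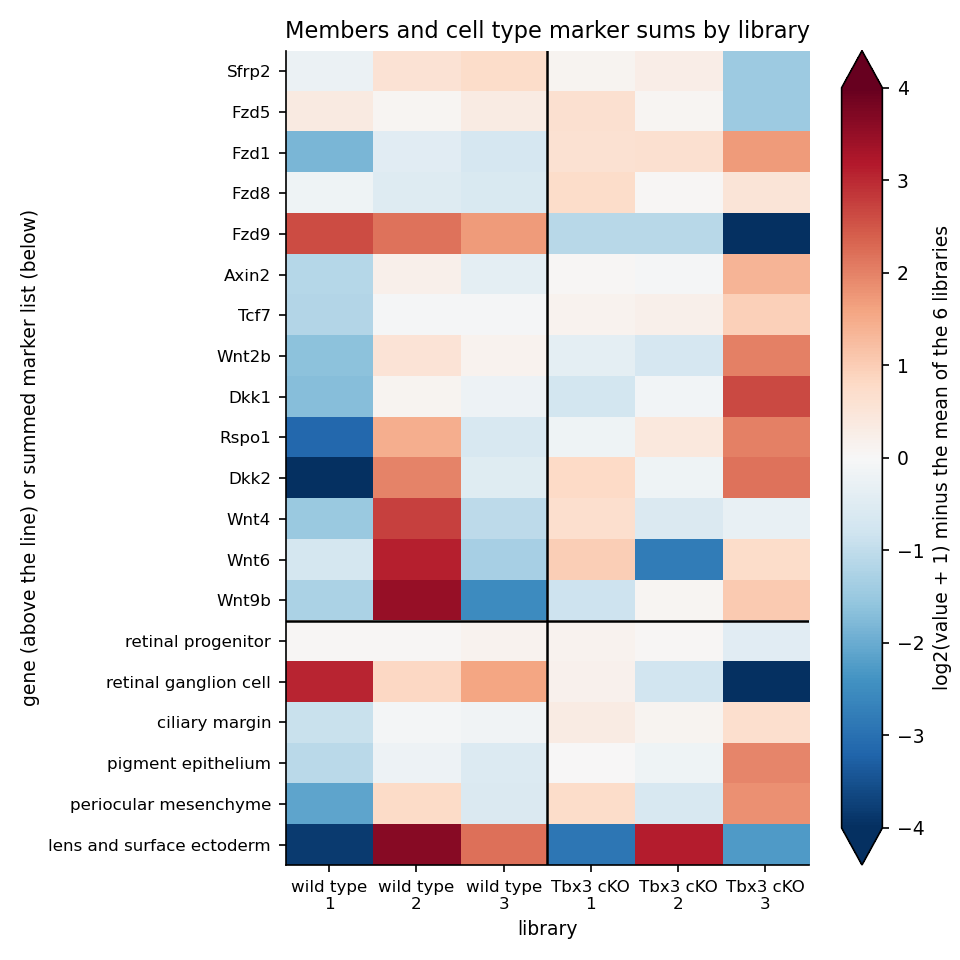
Heat map of log2(value + 1) minus the mean of the 6 libraries for 14 members, picked for display after their values were seen, and below the line for the summed markers of 6 cell types. Rspo1, Dkk1 and Wnt2b are lowest in wild type 1 and highest in Tbx3 cKO 3, as the ciliary margin, pigment epithelium and mesenchyme sums are. The ganglion cell sum is the reverse. Wnt4, Wnt6 and Wnt9b peak in wild type 2, and Fzd1, Fzd8 and Fzd9 split at the line between genotypes.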

How the data were processed

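The authors deposited 1 table of normalized reads per gene for 6 polyA RNA-seq libraries, a signal on a linear scale that is not whole counts. The tools STAR 2.7.8a, cutadapt 4.2 and Partek and the build GRCm39 (mm39) are listed, without their roles, per the submitters' processing notes. For the counter, annotation, use of strand and scaling nothing is stated in the sources read. The step between low values gives an estimated 21482340 to 27173677 reads per library, and a value of 0 allows up to 3 reads (2.69 to 3.41 normalized; counting error only).

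Genes with at least 10 in at least 3 libraries (18914 of 26147) were compared on log2(value + 1) with limma-trend (limma 3.58.1, R 4.3.3), as a two-sided test adjusted by Benjamini-Hochberg, threshold 0.05; such fold changes understate low genes. The steps were tested on simulated data. Single values were compared by exact permutation. Values in every library are given for members at an unadjusted p under 0.05, or without overlap at an absolute log2 fold change of at least 0.5, and per class the member with the most reads and that of smallest p; per pathway list the 2 genes of smallest p. Others are given to account for all members. Members, lists and rules were chosen with earlier results of these data known.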

Additional observations from a re-analysis of the deposited data

How the results depend on the processing

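The number of members past the adjusted threshold was 0 in every alternative except the 4-library fit (without wild type 1 or Tbx3 cKO 3), where it was 1 (Fzd1). That fit left out the lowest and highest library of Fzd1. Over all genes 43 passed in it, against 12 in the main fit. Members higher at an unadjusted p under 0.05 numbered 5 with quantile normalization, 5 with the replicate block and 2 to 9 on leaving out 1 library. Over all 18914 genes the higher ones numbered 1292, 1347 and 722 to 1446 in these fits. With group means taken off, same-numbered libraries correlated at 0.33, 0.02 and 0.04, and other pairs at -0.30 to 0.23. With so few libraries these values cannot show whether the numbers pair them, and the labels do not say. The replicate block gave 3 lower members, against 1755 of all genes. Lower ones numbered 1 with equal totals, 1 with no mean trend, 4 with library weights, 4 in the 4-library fit and 1 to 4 on leaving out 1 library. Over all genes, in the same order, lower ones numbered 1075, 921, 1693, 786 and 652 to 1585. Without overlap were 6 higher and 7 lower in the 4-library fit, 3 to 11 higher and 2 to 6 lower on leaving out 1 library, and 1 lower with equal totals or quantile normalization. Groups of fewer libraries separate more readily by chance. The share of all genes without overlap was not computed for these fits, so nothing is read from these counts. Class medians moved to -0.43 (ligands), -0.48 (R-spondins and their ligases) and 0.041 (response genes and TCF factors) in the 4-library fit and to 0.092 (Frizzled receptors) with library weights. Single log2 fold changes changed sign in the 4-library fit for Wnt2b (-0.87), Wnt9a (-0.19), Wnt9b (-0.84), Fzd5 (0.14), Fzd6 (-0.21), Dkk1 (-0.38), Dkk2 (-0.44), Dkk3 (0.43), Rspo1 (-0.29), Rspo4 (-1.74), Znrf3 (-0.017) and Lef1 (-0.012). With library weights they did for Wnt2b (-0.086), Wnt4 (0.69), Wnt6 (0.53), Dkk3 (0.073) and Rspo4 (-1.05), and with a pseudocount of 4 for Wnt9b (-0.075). On leaving out 1 library the range spanned 0 for Wnt2b (-0.21 to 1.12), Wnt4 (-0.91 to 1.21), Wnt6 (-1.57 to 0.65), Wnt9a (-0.013 to 0.95), Wnt9b (-0.998 to 1.99), Fzd5 (-0.94 to 0.10), Dkk3 (-0.44 to 0.40), Sfrp1 (-0.55 to 0.22), Rnf43 (-0.57 to 0.31) and Rspo4 (-0.73 to 1.71). The cause was not tested.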
